A study of Mus musculus with 6 samples.

Results

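RUNX1 peaks were examined around 10 mouse genes of bone morphogenetic protein (BMP) and activin/TGF-beta signalling. These were the receptor genes Bmpr1a, Bmpr1b and Bmpr2, the signal-carrying Smad2 and Smad3, the inhibitory Smad6 and Smad7, and the target genes Id1, Id2 and Id3. A peak was assigned to a gene when its summit, the base with the highest read pileup, lay inside the annotated gene or within 50 kb of either end (GRCm38 RefSeq annotation). Under this rule 187 of the 51515 peaks in 4 libraries belonged to the 10 genes. The gene table held 21900 protein-coding genes. The 10 were listed by name with earlier results of these data known, and no peak value entered the rule. Assignment is by position only, and several sites counted below lie inside or nearer to other genes.

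RUNX1 is a transcription factor that binds DNA through its Runt domain, and granulosa cells are the hormone-producing support cells around the oocyte of a follicle. RUNX1 was mapped by chromatin immunoprecipitation and sequencing (ChIP-seq, single-end reads of 75 nt) in granulosa cells of CBA x C57BL/6 F1 mice, 21 days old. Equine chorionic gonadotropin (eCG, 5 IU) was given to grow the follicles, and 46 h later human chorionic gonadotropin (hCG, 5 IU) to mimic the ovulatory hormone surge. The groups were 0 h, before hCG, and 6 h after it, each with 2 RUNX1 libraries and 1 pooled input, and the question they address is how RUNX1 sites differ before and after the stimulus. The treatment text is the same for every sample and describes collection at 6 h only, so the 0 h group rests on the sample titles and time-point labels. The labels do not say whether replicates came from separate animals or pools, so the spread between libraries may be technical. Peak lists carry no RNA values, and granulosa cell markers could therefore not be checked.

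BMP ligands bind a receptor complex of type I chains, such as BMPR1A (ALK3) and BMPR1B (ALK6), and type II chains, such as BMPR2. The activated complex phosphorylates receptor SMADs, which enter the nucleus with SMAD4 and switch on targets, among them the ID genes. SMAD2 and SMAD3 carry the parallel signal of activin, TGF-beta and the oocyte factor GDF9, while SMAD6 and SMAD7 are feedback inhibitors. ID proteins are helix-loop-helix factors without a DNA-binding region that bind and block basic helix-loop-helix factors. In the follicle, oocyte and theca ligands of this family act on granulosa cells and restrain luteinisation.

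The bases upstream of Smad3, Id2 and Id3 are shown because at 6 h these genes had a summit of both libraries inside the 250 bases before the transcription start. They were taken from RefSeq on GRCm38.p6, and each run is written 5′ to 3′ on the gene's strand and ends at the base before the start. Capitals mark the 21 bases centred on each summit. For Smad3 (chr9:63757995-63758244, minus strand) they mark, in the order printed, the summit of 6 h replicate 2 at −223, of 6 h replicate 1 at −184 and of 0 h replicate 2 at −34, counted in bases from the start. For Id2 (chr12:25096093-25096342, minus strand) they mark 6 h replicate 2 at −187 and 6 h replicate 1 at −27. For Id3 (chr4:136143572-136143821, plus strand) they mark 6 h replicate 2 at −162 and 6 h replicate 1 at −132.
Smad3: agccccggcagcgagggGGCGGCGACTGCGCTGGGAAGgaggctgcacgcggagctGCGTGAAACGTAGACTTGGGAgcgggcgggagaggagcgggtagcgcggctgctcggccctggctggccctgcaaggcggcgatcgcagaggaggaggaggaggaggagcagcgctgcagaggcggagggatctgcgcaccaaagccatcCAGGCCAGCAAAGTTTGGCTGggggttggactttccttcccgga
Id2: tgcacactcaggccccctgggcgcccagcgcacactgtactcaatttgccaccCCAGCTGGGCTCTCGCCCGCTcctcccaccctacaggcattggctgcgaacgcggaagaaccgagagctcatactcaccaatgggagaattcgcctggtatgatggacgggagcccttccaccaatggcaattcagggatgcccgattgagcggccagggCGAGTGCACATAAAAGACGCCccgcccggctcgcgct
Id3: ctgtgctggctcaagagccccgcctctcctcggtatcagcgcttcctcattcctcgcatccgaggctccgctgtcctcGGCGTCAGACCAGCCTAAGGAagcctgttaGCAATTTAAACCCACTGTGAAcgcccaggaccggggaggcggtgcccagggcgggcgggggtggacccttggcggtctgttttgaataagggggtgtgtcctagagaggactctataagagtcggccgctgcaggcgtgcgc

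RUNX1 peaks near the 10 genes were few at 0 h and many at 6 h. There were 5 such peaks in 0 h replicate 1, 14 in 0 h replicate 2, 75 in 6 h replicate 1 and 93 in 6 h replicate 2. The means were 9.5 ± 6.36 and 84 ± 12.7 peaks (SD, n = 2), and the groups did not overlap. The mean log2 number of peaks differed by 3.32, with 6 h above 0 h (exact permutation test over libraries, two-sided, p = 0.333, the smallest p that 2 against 2 libraries can give). The difference was 2.58 without 0 h replicate 1 and 4.06 without 0 h replicate 2. All 10 genes had more peaks in each 6 h library than in either 0 h library, as did 64.6% of all protein-coding genes.

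The lists themselves differed in length in the same direction. At 0 h they had 948 and 3135 peaks, against 18761 and 28671 at 6 h. The 10 genes took 0.527% of the peaks of 0 h replicate 1 (exact Clopper-Pearson 95% interval 0.171 to 1.23) and 0.447% of those of 0 h replicate 2 (0.244 to 0.748). They took 0.400% in 6 h replicate 1 (0.315 to 0.501) and 0.324% in 6 h replicate 2 (0.262 to 0.397). These intervals, which cover counting error only, overlapped between the time points. The 0 h share averaged 0.487% ± 0.0572 and that of 6 h 0.362% ± 0.0533 (SD, n = 2), a difference of −0.125 percentage points (exact permutation test, two-sided, p = 0.333). That difference changed sign when the window was 10 kb, and also with lists of equal length. With the 948 peaks of lowest p-value from each library, the 10 genes had 5 and 4 peaks at 0 h and 5 and 6 at 6 h, a log2 difference of 0.29 (exact permutation p = 0.667). The higher number at 6 h near these genes came with longer lists, and the part that list length has in it was not tested. Lists cut to the same length compare shares of top peaks, so they cannot show a general rise in the number of sites.

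**Figure D1:**
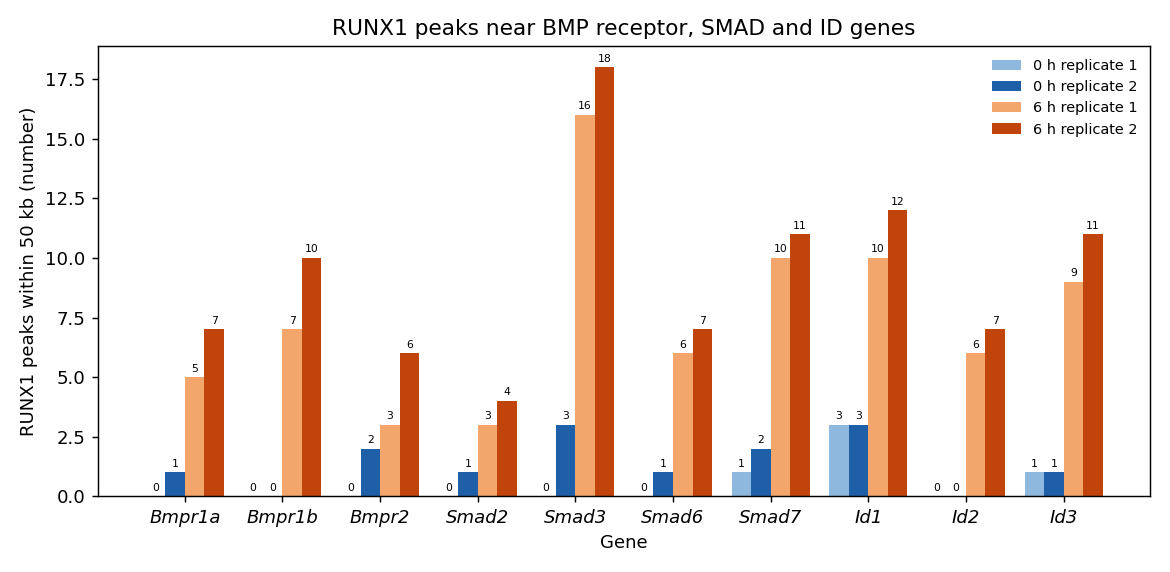
Number of RUNX1 peaks (vertical axis) with a summit in or within 50 kb of each of the 10 genes (horizontal axis), 1 bar per library, with the number above each bar. The 6 h bars reach 18 at Smad3, while no 0 h bar exceeds 3 and Bmpr1b and Id2 have no 0 h peak.

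A replicated region was defined as a merged interval holding a peak of both libraries of a time point, with at least 1 bp shared. Of the 17190 such regions at 6 h, 64 belonged to the 10 genes, and every gene had at least 3. A gene with 3 stood at percentile 71.3 of all protein-coding genes by number of regions. Among all protein-coding genes 68.8% had a 6 h region within the same distance. At 0 h, 5 of 847 regions belonged to Smad7, Id1 and Id3, so 3 of 10 genes had a region, where 8.75% of all genes did. Among genes of 20 kb or more, 76.3% had a 6 h region and 8.91% a 0 h region, and of the 7 receptor and SMAD genes, all of that length, 7 and 1 did. Among genes under 10 kb, 55.6% had a 6 h region and 7.87% a 0 h region, and of the 3 ID genes 3 and 2 did. The 0 h count rested on the sparser library: without 0 h replicate 1, a peak of replicate 2 lay near 8 of the 10 genes and near 28.2% of all protein-coding genes. At a −log10 q of at least 20, only Id1 had a 0 h region, where 3.86% of all genes did.

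The receptor genes had few RUNX1 sites at 0 h. Bmpr1a, a type I receptor gene (gene ID 12166, chr14:34411061-34503336), had 0 and 1 peaks at 0 h and 5 and 7 at 6 h. The region chr14:34502777-34503486, over an end of the gene, had folds of 13.2 and 19.0 in 6 h replicates 1 and 2, and of 6.22 in 0 h replicate 2. Fold here is the authors' enrichment of ChIP over local background at the summit, and it ranks peaks only within its own list. The highest-ranking Bmpr1a region had no 0 h peak and lay 5050 bp outside the gene, at chr14:34508055-34508728, with folds of 14.9 and 32.9 at 6 h. Its nearest coding gene end was that of 9230112D13Rik. A further region, 46159 bp beyond Bmpr1a, lay inside Ldb3.

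Bmpr1b, the other type I receptor gene and the longest of the 10 (gene ID 12167, chr3:141837135-142169585), had no 0 h peak in either library and 7 and 10 peaks at 6 h. All 5 of its 6 h regions lay inside the gene. The highest-ranking was chr3:141892785-141893650, with folds of 23.9 and 26.8 at 6 h. Its mean percentile of fold over both 6 h lists was 93.9, where 100 is the top of a list. The other 4 regions had mean percentiles between 16.8 and 58.6, so Bmpr1b combined 1 high-ranking site with 4 of middle or low rank.

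Bmpr2, the type II receptor gene (gene ID 12168, chr1:59764279-59878081), had 0 and 2 peaks at 0 h and 3 and 6 at 6 h. None of its 3 replicated 6 h regions lay inside the gene. The region at its start, chr1:59762681-59764210, had folds of 12.8 and 25.5 at 6 h and 6.02 in 0 h replicate 2. The highest-ranking region, chr1:59912439-59913364, had folds of 16.3 and 33.2 at 6 h and 9.42 in 0 h replicate 2, but lay 338 bp from an end of Fam117b and 34587 bp from Bmpr2. The Bmpr2 count was thus made up of 1 region by its own start and 2 by Fam117b.

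The SMAD genes differed widely in the number of sites. Smad2 (gene ID 17126, chr18:76241090-76311748) had 0 and 1 peaks at 0 h and 3 and 4 at 6 h. Its highest-ranking region, chr18:76240653-76241690, covered the gene end of lower coordinate. It had folds of 22.3 and 25.2 at 6 h and 7.39 in 0 h replicate 2. The other Smad2 regions lay 17574 and 40248 bp outside the gene and had no 0 h peak.

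Smad3 (gene ID 17127, chr9:63646766-63757994) had 0 and 3 peaks at 0 h and 16 and 18 at 6 h, more than any other of the 10 genes in each 6 h library. Of its 13 replicated 6 h regions, 7 lay inside the gene. The intragenic region chr9:63743500-63745197 had folds of 46.2 and 77.5 at 6 h, at percentiles 99.8 and 99.9 of the lists, and was the highest-ranking site of all 10 genes. In 0 h replicate 2 it had a fold of 8.24 (percentile 67.4), and no peak was called there in 0 h replicate 1. The region over the Smad3 start, chr9:63757128-63758651, ranked lower, with folds of 6.64 and 12.1 at 6 h and 6.06 in 0 h replicate 2. Another site with a 0 h peak, chr9:63610794-63611558, lay inside Aagab, 35508 bp from Smad3, with folds of 31.6 and 48.2 at 6 h and 5.83 in 0 h replicate 2. Smad3 was the only one of the 10 genes with 3 peaks in each 6 h list of 948 peaks, and it had none in either 0 h list of that length. Id1 had 3 and 2 peaks in the 0 h lists of that length and 1 in each 6 h list, and Id3 had 1 in each 0 h list and 0 at 6 h. Smad7 had 1 and 0 peaks in the 0 h lists and 1 in each 6 h list. Bmpr2 had 1 in 0 h replicate 2, Bmpr1a had 1 in 6 h replicate 2, and the other genes had none. In these lists 6.41% of all protein-coding genes had a region replicated at 0 h within 50 kb, and 6.85% had 1 replicated at 6 h.

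Smad6, an inhibitory SMAD gene for BMP signals (gene ID 17130, chr9:63953076-64022085), had 0 and 1 peaks at 0 h and 6 and 7 at 6 h. Its 0 h peak lay in the region chr9:63927093-63928135, 25360 bp outside the gene, with folds of 16.9 and 28.8 at 6 h and 6.86 in 0 h replicate 2. The region over its start, chr9:64021577-64023324, had folds of 12.4 and 21.8 at 6 h and no 0 h peak. The remaining 3 regions ranked low, with mean percentiles between 17.2 and 28.9.

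Smad7, an inhibitory SMAD gene for both BMP and TGF-beta signals (gene ID 17131, chr18:75367365-75395935), had 1 and 2 peaks at 0 h and 10 and 11 at 6 h. It was the only receptor or SMAD gene of the 10 with a replicated 0 h region, chr18:75375602-75375830. This region lay inside the gene, 8341 bp from the gene end of lower coordinate. That site had folds of 6.95 and 7.41 at 0 h, and the 6 h region around it had folds of 23.3 and 35.9. It stood at percentiles 39.3 and 53.1 of the 0 h lists and at 95.4 and 96.5 of the 6 h lists. The lists differ in length, so these ranks measure neither a change nor its absence. A second region with a peak in 0 h replicate 2, chr18:75366394-75367175, lay 637 bp outside the gene, with a fold of 7.97 at 0 h and of 12.4 and 14.8 at 6 h.

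The ID genes are short, so almost all of the sequence searched for them was flank. Id1 (gene ID 15901, chr2:152736251-152737410) had 3 peaks in each 0 h library, the most of the 10 genes in replicate 1, and 10 and 12 at 6 h. All 3 of its replicated 0 h regions lay more than 34 kb away, inside other genes. The region chr2:152694510-152695062, inside H13, 41430 bp from Id1 and with its nearest coding gene end at Mcts2, was the highest-ranking 0 h site, with folds of 13.5 and 11.8 (percentiles 93.6 and 91.2). At 6 h its folds were 27.7 and 49.6 (percentiles 97.4 and 98.9). The site chr2:152691880-152692168, also in H13 and nearest to Mcts2, had folds of 8.17 and 10.1 at 0 h and of 9.63 and 16.6 at 6 h.

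The remaining 0 h region of Id1, chr2:152771585-152771959, lay inside Bcl2l1, 34354 bp from Id1 and with its nearest coding gene end at Cox4i2, with folds of 8.997 and 8.35. It was the only replicated 0 h region of the 10 genes without a replicated 6 h region. At 6 h a peak was called there in replicate 2 alone, with a fold of 6.90 (percentile 14.5). The pileup at its summit was 38 and 34 reads in the 0 h libraries and 53 in 6 h replicate 2, or 13.7, 12.8 and 24.9 times the floor background of each list. The site over Id1 itself, chr2:152735864-152736553, had no 0 h peak and folds of only 6.92 and 5.87 at 6 h (percentiles 29.0 and 6.42). A higher-ranking 6 h site in the Id1 flank was chr2:152741185-152742089, 4313 bp outside the gene, with folds of 8.26 and 27.3.

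Id2 (gene ID 15902, chr12:25093799-25096092) had no 0 h peak in either library and 6 and 7 peaks at 6 h. Its 4 replicated 6 h regions all had their summit upstream of the start, 187 to 3866 bp from it. They had mean percentiles between 49.6 and 76.8, and the highest-ranking, chr12:25099213-25101102, had folds of 18.1 and 12.9. The region over the start, chr12:25095861-25096903, holds the summits marked in the Id2 sequence above and had folds of 10.8 and 14.5. Id2 thus differed from Id1 and Id3 in having neither 0 h peaks nor replicated distal sites.

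Id3 (gene ID 15903, chr4:136143822-136145392) had 1 peak in each 0 h library and 9 and 11 at 6 h. The replicated 0 h region, chr4:136133830-136134102, lay 9839 bp upstream of Id3, with folds of 5.95 and 10.5 (percentiles 21.2 and 85.9). The 6 h region over it, chr4:136133755-136135596, was wider. In 6 h replicate 2 it held 2 peaks, of which the one at the 0 h position had a fold of 11.9 and the other, nearer to Id3, a fold of 17.4. The region over the Id3 start, chr4:136143046-136144320, had folds of 10.7 and 14.2 at 6 h and no 0 h peak. Of the 7 regions near Id3, 1 lay 264 bp from an end of E2f2.

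**Figure D2:**
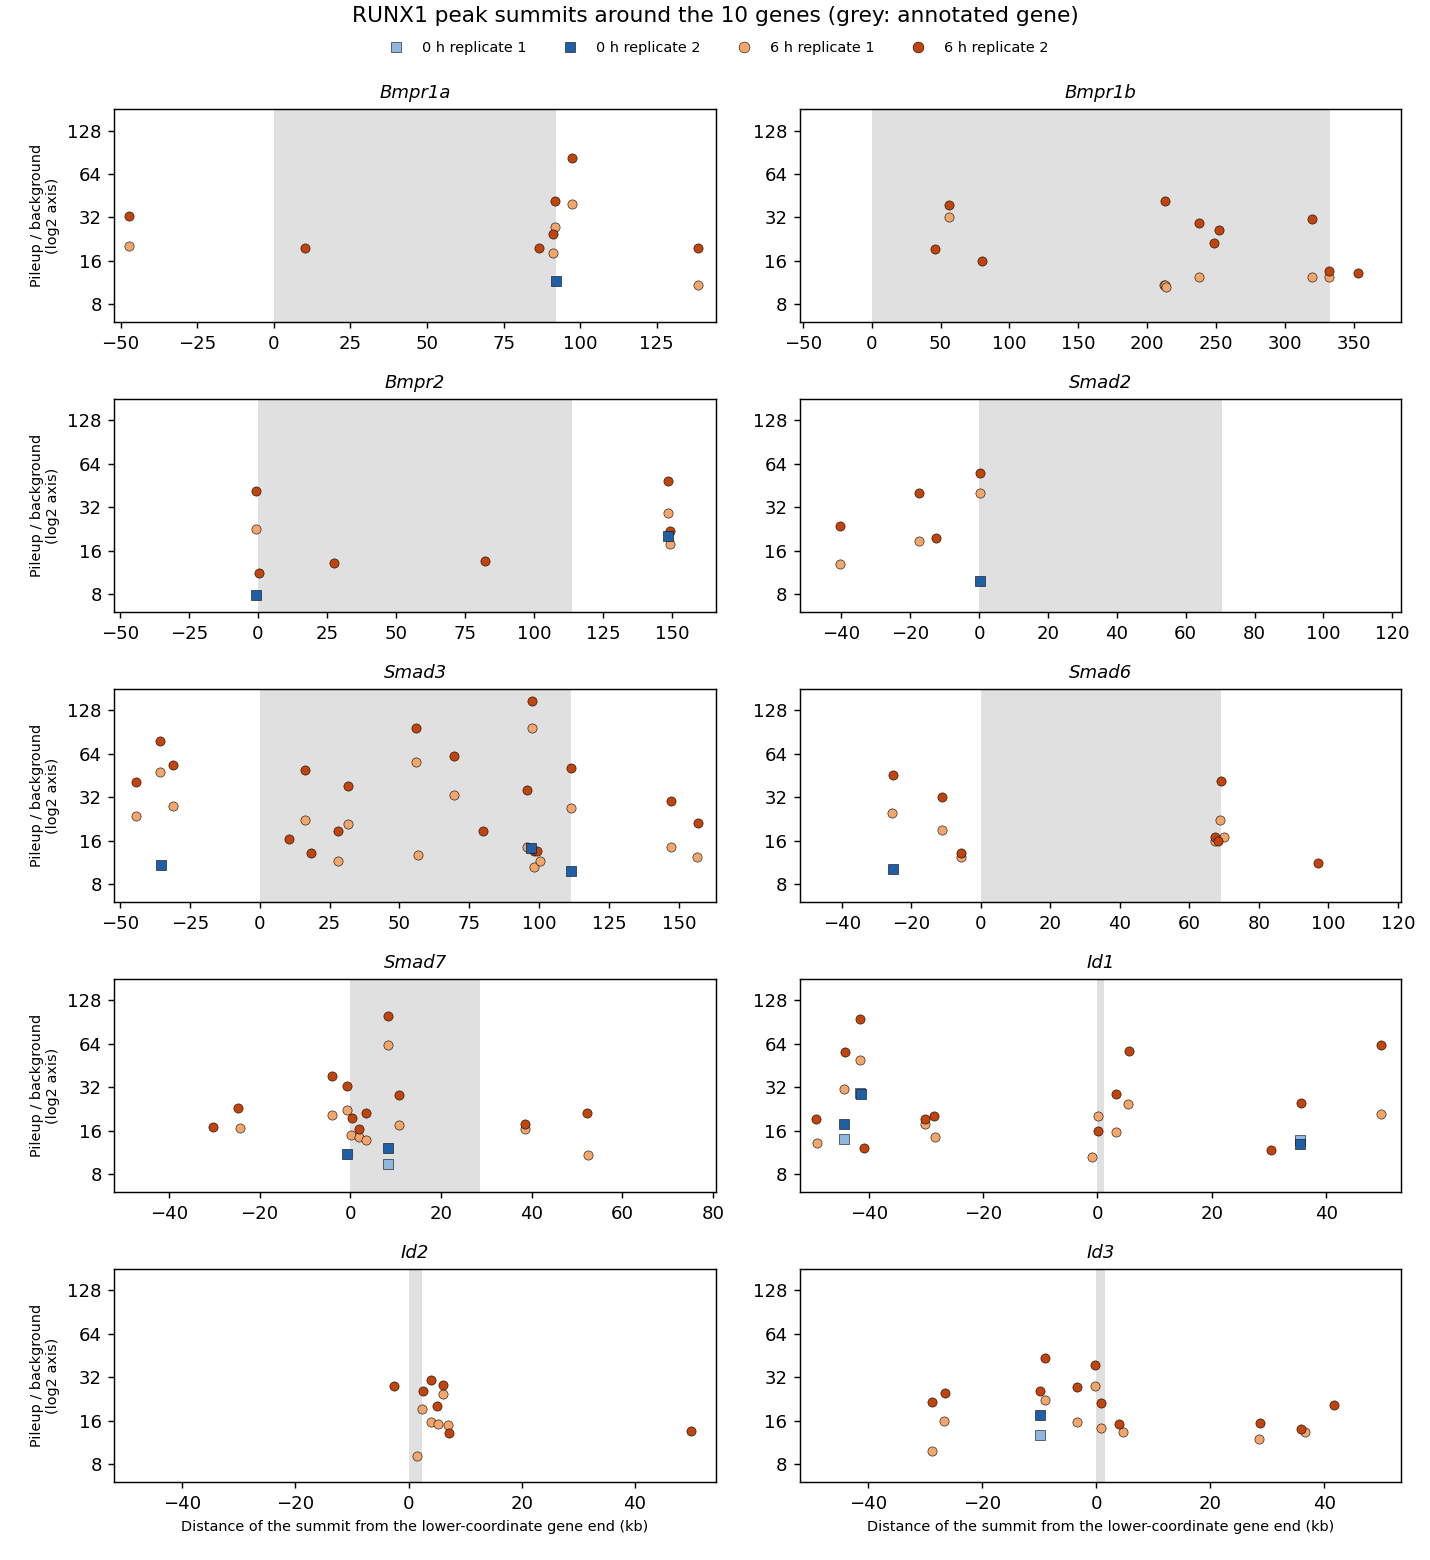
Each panel maps the peak summits of all 4 libraries around 1 of the 10 genes, with distance in kb from the gene end of lower coordinate on the horizontal axis and read pileup over floor background (log2 axis) on the vertical. Squares are 0 h and circles 6 h, and the grey band is the gene; in each panel with squares, 6 h circles lie at the same positions, and the highest point is the intragenic Smad3 site at 149 in 6 h replicate 2.

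Sites seen at 0 h were found again at 6 h, as were nearly all 0 h peaks of the lists. All 19 of the 0 h peaks near the 10 genes overlapped a peak of at least 1 of the 6 h libraries, beside 97.9% of all 0 h peaks. Of the 19, 17 overlapped a replicated 6 h region, beside 94.1% of all. The other 2 are the peaks at the Bcl2l1 site described for Id1. In the opposite direction, 13 of the 64 replicated 6 h regions overlapped a 0 h peak, or 20.3% (95% interval 11.3 to 32.2), beside 16.5% of all replicated 6 h regions. All 13 had a peak in 0 h replicate 2, and 4 of them, 6.25% (1.73 to 15.2), overlapped a region replicated at 0 h, beside 4.60% of all. Where the shared stretch had to cover 50% of each interval, 1 of 56 regions, or 1.79%, overlapped a 0 h peak, beside 4.17% of all. Under the 1 bp rule the 4 were the intragenic Smad7 site, both H13 sites near Id1 and the upstream Id3 site. Both shares of the 10 genes under the 1 bp rule had intervals that held the value of all regions. The intervals given for shares of regions, here and below, treat the regions as independent. The 64 regions cluster in 10 genes and come from the same libraries, so these intervals cover counting error only.

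The 6 h regions with and without a 0 h peak differed in rank. The median of the mean percentile was 51.0 for the 51 regions without a 0 h peak, 91.0 for the 9 with a peak in 0 h replicate 2 alone and 82.2 for the 4 over replicated 0 h regions. Over all replicated 6 h regions these medians were 54.4, 81.2 and 91.7. The 64 regions as a whole had a median mean percentile of 60.1, beside 59.1 for all regions, and a median width of 690 bp, beside 611 bp. Of the 64, 9 were above percentile 90 on average, or 14.1% (6.64 to 25.0), beside 12.02% of all.

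The read pileup behind each peak was recovered from its fold and p-value, and divided by the floor background of its library, so that libraries could be set side by side. The floor was 2.77 and 2.65 reads at 0 h and 2.76 and 2.13 at 6 h. Only called peaks have a value: over the floor, the smallest pileup that could be called was 18 and 17 reads at 0 h and 18 and 16 at 6 h, so sites without a 0 h peak are not known to be empty. The values below therefore describe called sites and carry no test.

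At the intragenic Smad3 site the scaled pileup was 14.3 in 0 h replicate 2, 97.1 in 6 h replicate 1 and 149 in 6 h replicate 2. At the Aagab site near Smad3 it was 10.9, 47.8 and 78.4, and over the Smad3 start 9.81, 27.2 and 51.2, in the same libraries. The intragenic Smad7 site was called in all 4 libraries, with 9.39 and 12.1 in the libraries of 0 h and 62.3 and 100 in those of 6 h. The intragenic Smad3 and Smad7 sites had the highest values of the 13 sites in both 6 h libraries.

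The leading H13 site near Id1 had a scaled pileup of 29.2 and 28.7 before hCG and 49.6 and 94.8 after it. For the other H13 site it was 14.1 and 17.7 before and 31.2 and 55.9 after. The upstream Id3 site had 12.6 and 17.4 at 0 h. At 6 h the leading summit of that Id3 region had 22.1 and 43.2, and the replicate 2 summit at the 0 h position had 25.8.

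Among the receptor genes, the Bmpr1a site had 11.7 in 0 h replicate 2 and 27.5 and 41.8 at 6 h, and the Bmpr2 start had 7.92, 22.8 and 41.3. The Fam117b site near Bmpr2 had the highest 0 h value of the sites seen in replicate 2 alone, 20.4, with 29.3 and 48.4 at 6 h. The site over the lower-coordinate end of Smad2 had 9.81, 40.2 and 55.4. The Smad6 flank site had 10.19, 25.0 and 46.0, and the site outside Smad7 10.9, 22.1 and 32.4. At all 13 sites both 6 h values exceeded every 0 h value, and 6 h replicate 2 exceeded 6 h replicate 1. At Id3 the 6 h values are of summits 854 and 843 bp from that of 0 h replicate 2. Of all 2778 regions with a peak in 0 h replicate 2 and both 6 h libraries, 99.0% were higher at 6 h. In 98.3% of them 6 h replicate 2 was above replicate 1.

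**Figure D3:**
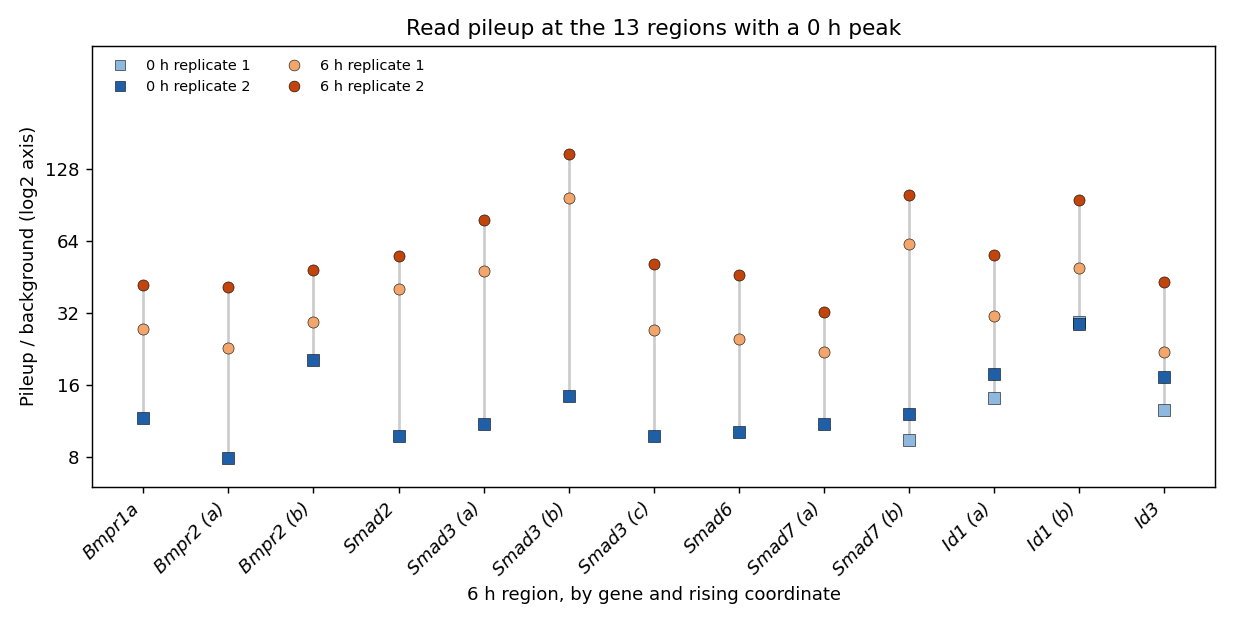
Read pileup at the summit over the floor background of the library (log2 vertical axis) for the 13 replicated 6 h regions with a 0 h peak, named by gene and lettered by rising coordinate. Points are single libraries, squares 0 h and circles 6 h; at Smad3 (b) the values run from 14.3 to 149, at Id1 (b) from 28.7 to 94.8, and at Id3 the 6 h points are of summits 854 and 843 bp from that of 0 h replicate 2.

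The mean log2 value at 6 h minus the log2 value in 0 h replicate 2 ranged from 0.89 at the Fam117b site to 3.07 at the intragenic Smad3 site over the 12 sites whose 6 h summits lay within 275 bp of the summit of 0 h replicate 2. The Id3 region gave 0.83, but its leading 6 h summits lay 854 and 843 bp from that of 0 h replicate 2, so that value does not describe a single position. The median was 1.83 over the 12 sites and 1.73 over all 13. Over all 2778 regions with a peak in the same 3 libraries it was 1.73, with 10% of regions below 0.83 and 10% above 2.41. In that ranking the intragenic Smad3 and Smad7 sites, at 3.07 and 2.71, stood at percentiles 99.5 and 96.7. The Aagab site near Smad3, at 2.48, stood at percentile 92.3, and the Smad2 site, at 2.27, at 83.9. The H13 sites near Id1, at 1.23 and 1.26, stood at 22.9 and 24.1. Of the 2778 regions, 99.0% were higher at 6 h, and 6 h replicate 2 was above replicate 1 in 98.3%. A higher value at 6 h was thus common to nearly all regions called in these 3 libraries, and the part that immunoprecipitation efficiency has in it was not tested.

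Per length of sequence searched, 6 h regions were densest near Id1, Smad7, Id3 and Smad3. Id1 had 8.90 regions per 100 kb of gene and flanks, Smad7 7.78, Id3 6.89 and Smad3 6.15, at percentiles 99.4, 98.7, 97.8 and 96.6 of all protein-coding genes. Id2 followed with 3.91, Smad6 with 2.96 and Bmpr1a with 2.60. The lowest were Smad2 with 1.76, Bmpr2 with 1.40 and Bmpr1b with 1.16, at percentiles 63.1, 55.9 and 53.2. The median was 3.43 over the 10 genes and 0.969 over all genes. Regions inside neighbouring genes are counted too. Inside the gene itself lay 1 of 9 regions for Id1, 5 of 10 for Smad7, 1 of 7 for Id3 and 7 of 13 for Smad3. Most of the Id1 regions lay inside H13 or Bcl2l1. The order rests on the number of regions replicated in the same 2 libraries and has no error of its own.

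**Figure D4:**
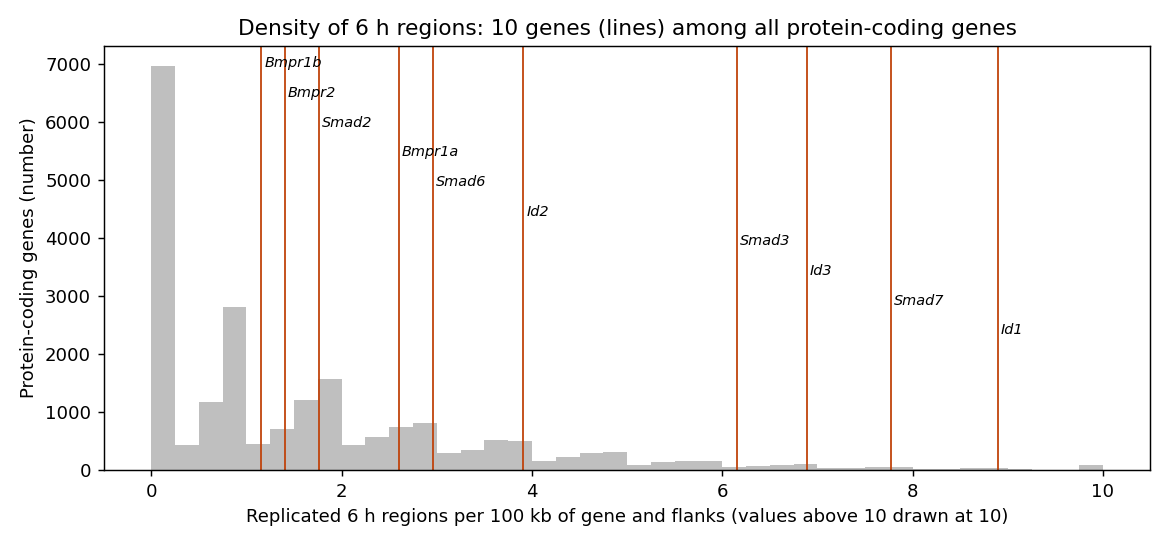
Histogram of replicated 6 h regions per 100 kb of gene and flanks (horizontal axis) over the 21900 protein-coding genes (vertical axis, number of genes), with a line for each of the 10 genes. The lines run from Bmpr1b at 1.16 to Id1 at 8.90, all above the median of all genes at 0.969. Regions inside neighbouring genes are counted.

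By position, 24 of the 64 regions lay inside 1 of the 10 genes, 11 inside another coding gene and 29 outside coding genes. For 48 of them the nearest coding gene end was that of the gene they were assigned to, and for 16 it was that of another gene. Beside those named above, the other genes were Fam25c for a Bmpr1a region, Iqch for a Smad3 region and Ctif for a Smad7 region. Summits within 1 kb of a coding gene end made up 18 of 64, or 28.1% (17.6 to 40.8), beside 45.2% of all replicated 6 h regions. The part that the choice of whole genes and 50 kb flanks has in this gap was not tested.

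RefSeq promoter windows, from 250 bases before to 50 after a transcription start, were at hand for 7 of the 10 genes. A replicated 6 h region overlapped a window of 6 of these 7, Bmpr1b being the exception, beside 37.9% of genes in the promoter table. The 3 Bmpr1b windows belong to starts inside the annotated gene, and a replicated 6 h region with folds of 6.01 and 7.09, chr3:142168948-142169544, had its summit 365 bp from the gene end of higher coordinate. No replicated 0 h region overlapped a window of the 7, beside 1.43% of genes. At Smad6 the summits lay at 41 and 3 bases after the start in 6 h replicates 1 and 2. At Bmpr1a they lay at −446 and −444 and, in 0 h replicate 2, at −494, and the edge of the region reached the window. At Bmpr2 the nearest summit of 6 h replicate 1 lay at −690 and that of 0 h replicate 2 at −718, while in 6 h replicate 2 a low-ranking peak 491 bases after the start was the nearest (fold 7.18).

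The RUNX core motif TGTGGT was searched on both strands of the 9 windows of these 7 genes, which include 3 for Bmpr1b, and none held it. Of all protein-coding promoter windows 15.0% held it, and of those overlapped by a replicated 6 h region 11.5% did. TGCGGT, a variant chosen after the data had been seen, was also in none of the 9, beside 7.44% of all windows. The Smad3, Id2 and Id3 sequences above thus carry summits without these letters in the window, and the sequence under the intragenic and distal sites was not analysed here.

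Among 32 further genes of the pathway, 28 had a replicated 6 h region within 50 kb, where 68.8% of all protein-coding genes did, and 3 a replicated 0 h region, where 8.75% did. All 8 other receptor genes, all 4 co-receptor genes and all 4 other SMAD genes had a 6 h region, as did Id4. So did 3 of 6 ligand genes and 8 of 9 genes of antagonists and negative regulators. The ligand genes Bmp7 and Bmp15, the latter expressed by the oocyte, had no peak in any library, and Bmp2 and the BMP antagonist gene Grem1 had 2 peaks each, in 6 h replicate 2 alone.

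The 3 pathway genes with a 0 h region were Acvr1b, Ski and Smurf2. The site near Acvr1b, the activin type I receptor gene ALK4, had folds of 11.1 and 12.9 at 0 h and 41.6 and 47.5 at 6 h (chr15:101245960-101247596), and its nearest gene end was that of Nr4a1. The Ski site, 809 bp from the gene of this SMAD co-repressor, had folds of 12.3 and 29.2 at 0 h and 25.7 and 43.6 at 6 h (chr4:155223129-155224039). The 0 h site near Smurf2, a ubiquitin ligase gene acting on SMADs and receptors, had folds of 5.44 and 6.59 and lay 79 bp from an end of Ddx5.

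The highest-ranking 6 h sites of the 32 genes, after that of Acvr1b with a mean percentile of 99.1, were those of Tgfbr1 at 98.1, Ski at 97.4, Smad4 at 96.3 and Acvr2a at 96.2. The Tgfbr1 site, 40 bp from the gene of the TGF-beta type I receptor, had folds of 31.3 and 41.7. The Smad4 site, 12 bp from the gene of the common partner SMAD, had folds of 27.4 and 32.7. The Acvr2a site, 856 bp inside the gene of an activin type II receptor, had folds of 22.8 and 38.9. Of the 10 genes above, Smad3 at 99.8 and Id1, through the H13 site, at 98.2 reached a similar rank. Smad7 at 95.9 stood just below.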

How the data were processed

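Peaks of 4 RUNX1 ChIP-seq libraries were used, and the 2 pooled inputs entered only through the peak calls. The genes, pathway list and window were chosen with earlier results of these data known. Per the submitters' processing notes, the authors used Bowtie2 2.2.5, MACS2 and build mm10 (GRCm38), and the peak names show 1 call per library. The MACS2 version and any filter are not given in the sources used here. The deposited lists give interval, summit, fold (a ratio of ChIP to local background), −log10 p-value and q-value, and a score of 10 times −log10 p, not used further. The lowest deposited −log10 p was 9.01 to 9.18.

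Sequencing depth is unknown beyond the floor background. MACS2's fold and p-value were solved for a whole-number pileup within 0.005 in −log10 p, which succeeded for 100% of peaks. Coordinates count from 1. Time points were compared over libraries with exact permutation tests (SciPy 1.17.1), and scripts were tested on simulated peaks. The text names all 10 genes, and of the 32 pathway genes those with a 0 h region, the 5 ranking highest at 6 h and those without a 6 h region. Other genes that hold a described peak or lie nearest to it are named too. Alternatives were windows of 10 and 100 kb, −log10 q of at least 20, lists of equal length, stricter overlaps, a replicate block and leaving out each library.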

Additional observations from a re-analysis of the deposited data

How the results depend on the processing

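Of the alternative values, 2 reversed, both of the difference in share of peaks, and 6 counts or shares moved. Among the other 40, the differences kept their sign, but not always their size. The genes with a region numbered 2 or 3 at 0 h and 10 at 6 h. The share of 6 h regions over a 0 h peak lay between 11.6 and 20.3%. The log2 difference in peak number was 0.29 with lists of equal length, the share difference −0.0405 at 100 kb, and the share of 6 h regions over a 0 h peak 11.6% at −log10 q of at least 20, beside 8.50% of all. That difference, −0.125 percentage points as reported, became 0.00307 with a 10 kb window (exact permutation p = 1) and 0.105 with 948 peaks per list (exact permutation p = 0.667). The cause was not tested. Lists of equal length, which hold fewer peaks by construction, left 3 genes with a 6 h region and 2 with a 0 h region, where 6.85% and 6.41% of all genes had one. With them 40% of the 6 h regions overlapped a 0 h peak (2 of 5), beside 56.4% of all. A −log10 q of at least 20 left 1 gene with a 0 h region (3.86% of all genes). Where the shared stretch had to cover 50% of each interval, 1.79% of 6 h regions overlapped a 0 h peak, beside 4.17% of all. A 0 h peak shorter than 50% of a 6 h region cannot pass this rule. The 0 h regions at the Smad7, H13 and Id3 sites were 229, 289, 553 and 273 bp wide. The 6 h regions over them were 973, 965, 1145 and 1842 bp wide. How far width lowers the share was not tested.

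Leaving out each library in turn gave log2 differences in peak number of 2.58 to 4.06, share differences of −0.165 to −0.0845, and 3 to 8 genes with a 0 h site, where 8 is the number with a peak in 0 h replicate 2 alone (28.2% of all genes have one). The share of 6 h regions over a 0 h peak was 6.25 to 20.3%, the lowest without 0 h replicate 2. With the replicate number as a block the differences stayed 3.32 and −0.125 (exact permutation p = 0.5, the smallest 2 pairs allow). Replicate 2 had more peaks than replicate 1 at both times. Beyond that common shift, the difference between replicates per gene was not correlated between the times (−0.0291 over 21900 genes), and the labels do not tie the numbers to a shared source. Sites uncalled at 0 h may lie under the limit of calling.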
